A study of Neurospora crassa with 18 samples.

Results

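The H3K27me2/3 signal of *Neurospora crassa* genes was compared between the *ash1*(Y888F) mutant and wild type (WT) by ChIP-seq. Described here are the 592 genes for which a log2 ratio of mutant over WT coverage was deposited, out of 9730 genes with a position in the same series, and no gene of that table was left out. Each gene has a mean ratio over the 0.5 kb upstream of its start, a mean over the 0.5 kb downstream, and the mean of both. A log2 ratio of -1 or below, a level of 50% of WT or less, is called lower here, and a ratio of 1 or above is called higher.

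The mutant (N4878, *mat A; his-3*) carries *ash1* with a Y888F substitution that inactivates the catalytic site, a 3xFLAG tag and the *hph* marker. WT was N623 (*mat A; his-3*) for RNA, without the tag, the marker or a deletion, and which WT strain gave the ChIP-seq sample is not given in the sources used here. All material was labelled as conidia, from germinated conidia. There was 1 ChIP-seq sample per group, so the ratios have no replicate check and no p-value, and RNA was measured in 2 poly-A+ libraries per group.

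H3K27me2/3 is deposited by Polycomb repressive complex 2 (PRC2), whose catalytic subunit in *Neurospora* is SET-7, and it marks facultative heterochromatin, regions of silent genes that lie mostly towards the chromosome ends in this fungus. ASH1 is the methyltransferase that places H3K36me2 on poorly transcribed genes, while SET-2 places H3K36 methylation on transcribed ones. The comparison asks whether H3K27 methylation depends on the catalytic activity of ASH1, in a mutant that also carries the tag and the marker. An H3K27me2/3 ChIP-seq sample labelled *ash1*-3xFLAG, without the substitution, is in the series. It was not used here, so the tag and the substitution were not told apart.

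All 592 genes are in the list of 1970 genes that carry H3K36me2 in a Δ*set-2* strain, called ASH1-marked, and make up 30.1% of it. In the WT H3K27me2/3 list of 836 genes, 585 of the 592 are found. That list also holds 236 genes without the ASH1 mark and 15 ASH1-marked genes that have no ratio here. The 7 listed genes outside it were not in the lower class, and 2 of them, *NCU09766* and *NCU07801*, were in the higher class. Apart from these 7, the values describe genes listed for H3K27me2/3 in WT and for the ASH1 mark in Δ*set-2*. Genes that gained H3K27me2/3 elsewhere in the genome would not be among them.

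The ratios fell into a large group near WT level and a tail of loss. The median log2 ratio was 0.08 (quartiles -1.28 and 0.40, range -2.97 to 1.81), and 287 genes (48.5%) lay within 0.5 of 0. Lower H3K27me2/3 was found for 166 genes, 28% of the genes with a ratio, with a median of -1.88 or 27.2% of WT. Of these, 67 had a log2 ratio of -2 or less. Higher H3K27me2/3 was found for 25 genes (4.22%), with a median of 1.19 or 227% of WT, and 401 genes lay between. No gene reached a log2 ratio of 2. The ratio has no external standard, and how the 2 samples were scaled to each other is not given in the sources used here, so the position of 0 is set by that scaling while the order of the genes is not.

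The deepest losses lay on 2 chromosome arms. *NCU12045* on LG VII (706753 to 707589, plus strand, NC12) had -3.18 upstream and -2.77 downstream, a mean of -2.97 or 12.7% of WT. *NCU12078* on LG VI (467360 to 467683, minus strand) had -2.78 and -3.17, a mean of -2.97. The next 6 were *NCU04703* (-2.94), *NCU04709* (-2.92), *NCU06901* (-2.92), *NCU04707* (-2.88), *NCU04706* (-2.83) and *NCU07049* (-2.76). Of these 8 genes, 6 lie between 358462 and 468262 on LG VI and the other two are next to each other on LG VII, so they are not 8 separate places. None of the 8 has a gene symbol in the annotation.

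The highest ratios were more scattered. *NCU04935* on LG IV (789870 to 792552, minus strand) had 1.91 upstream and 1.71 downstream, a mean of 1.81 or 350% of WT. It was followed by *NCU05713* on LG III (1.57), *NCU08192* on LG III (1.51), *NCU09766* on LG II (283% of WT), *NCU08545* and *NCU08548* on LG III (1.46 and 1.43), *NCU08116* on LG I (1.34) and *NCU09851* on LG V (1.34). The limits of the classes do not fall in gaps of the distribution. *NCU05920* (-1.01) and *NCU07092* (-1.03) lay just inside the lower class and *NCU05101* (50.1% of WT) and *NCU09279* (-0.98) just outside, and *NCU07801* (1.01) and *NCU08543* (1.02) lay just inside the higher class and *NCU07610* and *NCU08640* (both 0.98) just outside.

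The ratio differed widely between linkage groups. The median was -1.21 on LG II (17 of 31 genes lower), -1.09 on LG VII (39 of 76) and -0.94 on LG VI (49 of 103). LG V had a median of 0.11 (5 of 74 lower), LG III of 0.23 (27 of 151), LG I of 0.31 (2 of 32) and LG IV of 0.33 (27 of 125). Every linkage group had higher genes, namely LG III with 10, LG IV with 5, LG V with 4, LG I and LG II with 2 each, and LG VI and LG VII with 1 each.

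Each linkage group was parted at its midpoint into a left and a right side, and these sides often differed more than whole linkage groups did. On LG IV, 27 of 32 listed genes on the right side were lower (median -1.79) and 0 of 93 on the left side (median 0.41). On LG VI the order was the opposite, with 43 of 49 lower on the left side (median -2.07) and 6 of 54 on the right side (median 0.16). LG III had 24 of 50 lower on the left side (median -0.91) and 3 of 101 on the right side (median 0.38). The lower genes therefore lay mainly left or mainly right of the midpoint on these linkage groups, and not in the same direction on each. The left sides of LG II (15 of 23 lower, median -1.39) and LG VII (35 of 63, median -1.24) also stood low, while both sides of LG I and LG V were near WT. The left sides of LG II, III, VI and VII and the right side of LG IV held 144 of the 166 lower genes (86.7%) and 217 of the 592 listed genes (36.7%). These sides were picked by their values, and these counts are a description.

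**Figure D1:**
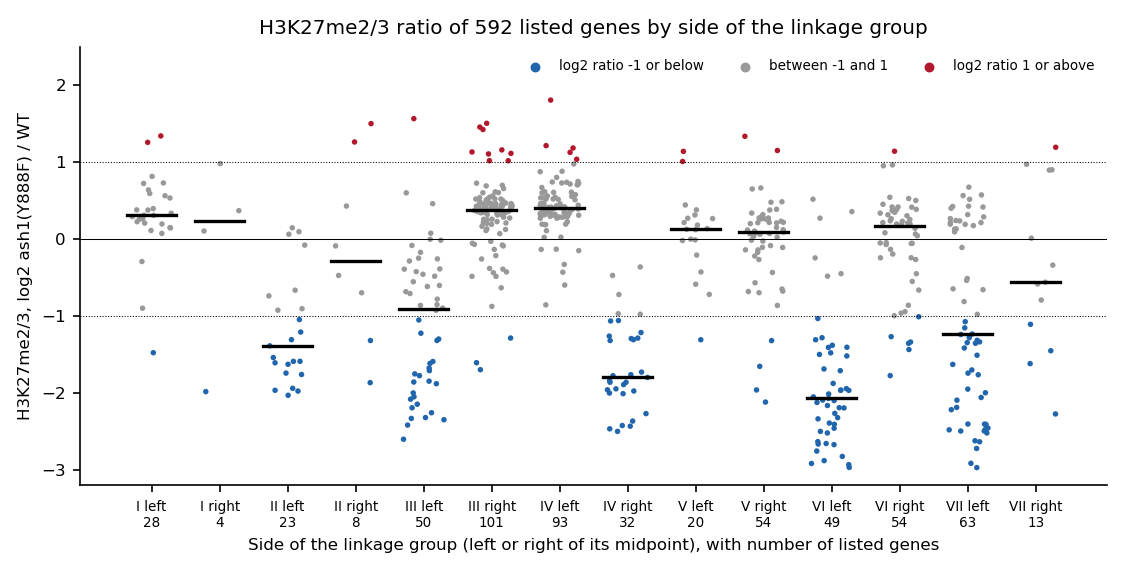
H3K27me2/3 log2 ratio of *ash1*(Y888F) over WT (y axis, mean of both 0.5 kb windows) for each of the 592 listed genes, by side of the linkage group (x axis, with the number of genes). Each point is a gene, black bars are medians and dotted lines mark ratios of -1 and 1. The right side of LG IV (median -1.79) and the left side of LG VI (median -2.07) lie apart from the other side of the same linkage group.

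Distance to the chromosome end did not order the genes. Within 50 kb of an end 5 of 42 genes were lower (11.9%, median -0.03), and from 50 to 100 kb 5 of 22 (median -0.10). The share was 38.0% from 100 to 200 kb (27 of 71, median -0.81), 24.9% from 200 to 500 kb (64 of 257, median 0.11) and 32.5% beyond 500 kb (65 of 200, median 0.19). The 64 genes within 100 kb of an end had a median 0.13 below that of the 528 others (log2 -0.03 against 0.10), and that difference changed sign without LG III (0.09) or without LG IV (0.09). At like distances the linkage groups went separate ways. From 200 to 500 kb, 29 of 29 listed genes of the left side of LG VI and 10 of 10 of the left side of LG VII were lower, against 0 of 34 on the left side of LG IV and 0 of 45 on the right side of LG III.

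In Δ*npf*, a strain without another PRC2 subunit that was compared with WT in a separate H3K27me3 pair, the 42 genes nearest the ends had a median of -1.68, with 38 of them at -1 or below. Over all 592 genes, 173 (29.2%) were at -1 or below in Δ*npf* and 27 at 1 or above. Of the 25 listed genes beyond 500 kb with a Δ*npf* ratio of 1 or above (median 1.44), 23 were lower in *ash1*(Y888F) (median -1.86). Of these, 6 lay on the left of LG II and 17 on the right of LG IV, where 10 of 11 and 20 of 20 listed genes beyond 500 kb were lower. The other 2, on the left of LG III, were not lower. Most genes lower in *ash1*(Y888F) had no such gain, with 24 of 166 at 1 or above in Δ*npf* and a median of 0.007.

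Along the chromosome the values ran in blocks. Listed genes with starts at most 30 kb apart were joined, which gave 86 blocks, 28 of them single genes. The blocks took up 85.5% of the sum of squares of the ratios, against 54.0% for the sides and 15.4% for the linkage groups (87.9% for 111 blocks at 20 kb and 81.1% for 62 at 50 kb). More and smaller units take up more by construction. The 35 blocks with 5 or more genes held 492 genes, and their medians ran from -2.64 to 0.56. Of these blocks, 7 had only lower genes, 15 had no lower gene and 13 had some. The 13 blocks with a median of -1 or below held 136 genes, of which 125 were lower.

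The block with the lowest median lay on LG VI (391604 to 483853), where all 17 listed genes were lower, from -2.97 to -1.95. Another block on the same side (145093 to 241210) had 20 of 21 lower with a median of -1.71, and one more (339390 to 359582) had 6 of 6 with a median of -2.15. All 18 listed genes of a block on LG VII (661362 to 721156) were lower, with a median of -2.48 and a highest value of -1.77. The next large block on LG VII (886585 to 946591) had 0 of 17 lower, with a range of -0.11 to 0.68. The loss at one block was thus not shared by the neighbouring block on the same side.

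Some blocks near WT level were uniform as well. On the right of LG III (4725647 to 4827377) 37 listed genes ranged only from 0.21 to 0.70, with a median of 0.40. The 5 large blocks on the left of LG IV had medians of 0.29 to 0.56, and none of their genes was lower. They were less uniform, with single genes from -0.60 to 1.81 and ranges within a block of 0.71 to 1.73. Over all 35 large blocks the median range was 1.30. On the right of LG IV, 9 of 9 genes at 5071805 to 5100144 were lower (median -2.01), and 7 of 10 at 5806268 to 5885111 (median -1.14). Other blocks with lower genes only were found on LG II (562861 to 586019, 6 genes, median -1.70) and on LG VII (306376 to 316465, 5 genes, median -1.32, and 1589163 to 1613812, 6 genes, median -1.63).

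**Figure D2:**
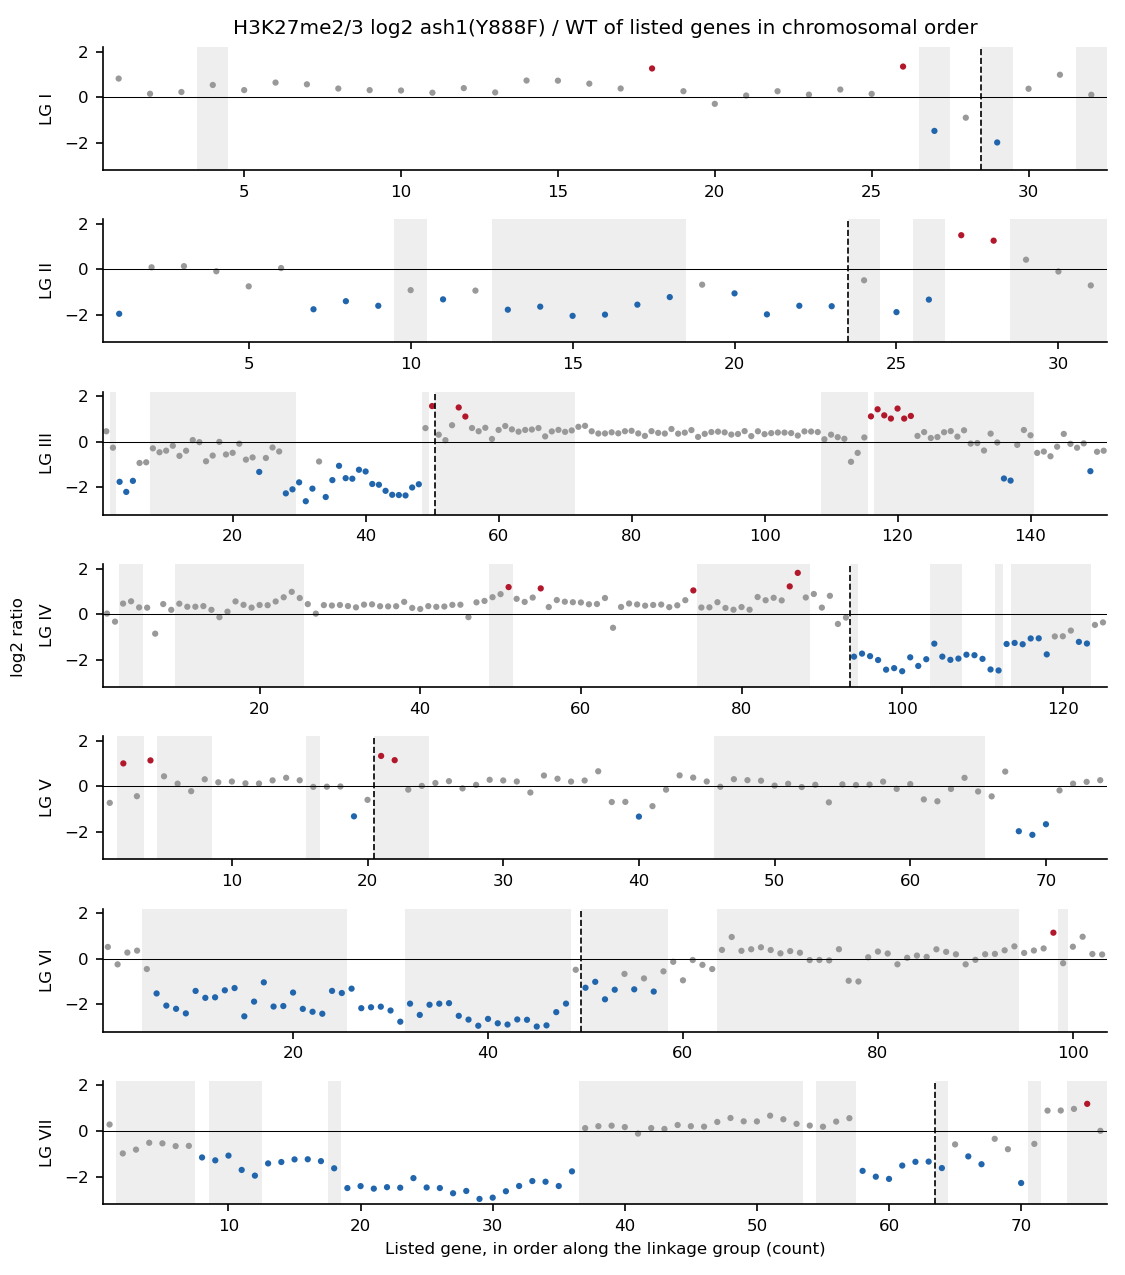
H3K27me2/3 log2 ratio (y axis) of listed genes in their order along each linkage group (x axis, 1 step per listed gene, not to scale in kb). Blue points are genes at -1 or below, red points at 1 or above, grey bands alternate between blocks of genes at most 30 kb apart, and the dashed line parts the sides. Lower genes stand in long stretches, as in the 17 genes of the LG VI block and the 18 genes of the LG VII block.

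Neighbouring genes had like values. Over 585 pairs of neighbouring listed genes the ratios correlated with Pearson's r = 0.85 (rho = 0.79), and over the 396 pairs with no other gene between them with r = 0.93. These pairs share the same 2 samples, and fragments and some windows overlap, so they are not independent. The absolute difference within a pair had a median of 0.09 for starts under 1 kb apart (n = 24), where windows overlap. It was 0.18 at 1 to 5 kb (n = 339), 0.27 at 5 to 20 kb (n = 118) and 0.40 at 20 to 50 kb (n = 49). Farther apart it was 0.72 at 50 to 200 kb (n = 37) and 1.06 beyond 200 kb (n = 18). Differences over 1 were found in 53 pairs (9.06%).

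Some changes of level were abrupt. The largest between genes under 30 kb apart lay on LG V, where *NCU07162* had 0.65 and *NCU07152*, 28.4 kb away, had -1.96. Between genes next to each other the largest was on LG III, from *NCU05657* (-0.86) to *NCU05658*, the kinase gene *stk-36* (-2.42), with starts 2.70 kb apart. At *NCU10004*, the kinase gene *stk-56*, the ratio was -2.26, while *NCU10629* at a distance of 15.4 kb had -0.42.

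**Figure D3:**
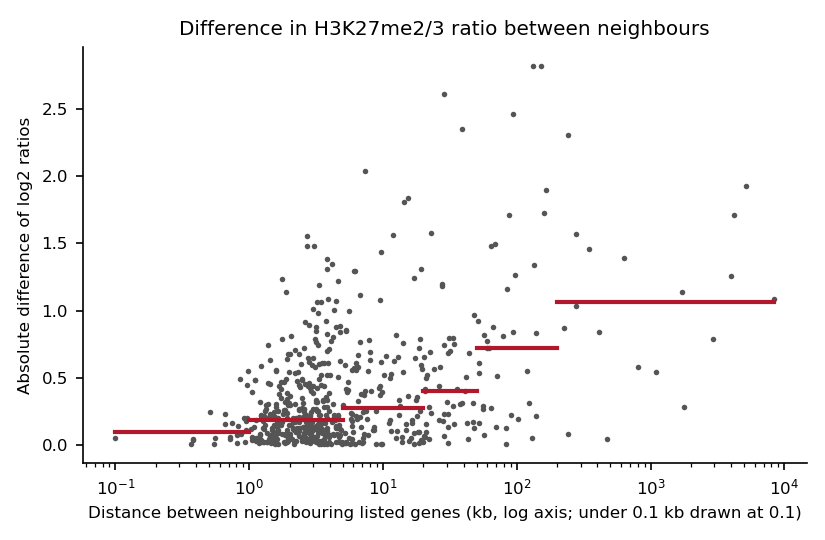
Absolute difference of the H3K27me2/3 log2 ratio (y axis) between neighbouring listed genes against the distance between their starts (x axis, kb, log axis). Each of the 585 points is a pair. Red bars are medians per distance class, which run from 0.09 under 1 kb and 0.18 at 1 to 5 kb to 1.06 beyond 200 kb.

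Lower genes stood side by side more than higher genes did. The 166 lower genes formed 63 runs of adjacent genes, and 135 of them (81.3%) were in the 32 runs of 2 or more. The longest run had 12 genes on LG VII (695165 to 721156), from *NCU06896* to *NCU06905*, with ratios of -2.97 to -1.77. The 25 higher genes formed 20 runs, and 8 of them (32.0%) were in runs of 2 or more. The longest had 4 genes on LG III (4964708 to 4972902), *NCU08548* (1.43), *NCU08547* (1.16), *NCU08546* (1.02) and *NCU08545* (1.46). A class of 166 genes has more chances of adjacency than one of 25, and the difference was not tested. By the length of the run of listed genes they belong to, 28.6% of 77 genes standing alone were lower and 24.1% of 203 in runs of 2 to 4. The share was 42.6% of 195 in runs of 5 to 9 and 10.3% of 117 in runs of 10 or more. The 12 lower genes in runs of 10 or more are those of the LG VII run, so that last share rests on 1 place.

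Upstream and downstream of the start codon the ratios were nearly the same, with a small shift. Across genes both windows correlated with r = 0.97 (rho = 0.94, n = 592). The median was -0.02 upstream and 0.15 downstream, and the downstream value was above the upstream value in 433 genes (73.1%), with a median difference of 0.12 (quartiles -0.02 and 0.29, range -0.78 to 0.96). No gene differed by 1 or more between its windows. The difference was alike for 288 genes on the plus strand (0.11) and 304 on the minus strand (0.15), so it followed the direction of the gene and not of the chromosome. For 436 of the 592 genes the start used lies within 1 nt of where the annotated transcript begins. For the others it lies inside the transcript, by up to 1119 nt, so their upstream window also covers transcribed sequence. Both windows come from the same pair of samples, and whether the shift exceeds the error between samples was not tested.

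The windows seldom disagreed on loss. Both windows were lower in 157 genes, the upstream window alone in 23 and the downstream window alone in 3. For higher H3K27me2/3, both windows passed in 17 genes, the upstream window alone in 2 and the downstream window alone in 13. Both of these imbalances go with the higher downstream ratio. The difference was largest among the 115 genes with mean ratios between -1 and 0, where it had a median of 0.29 and the downstream value was the higher one in 81.7%. Among the 166 lower genes it was 0.11 (59.6%), and on LG II the median was -0.01.

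The largest differences between the windows were found in the following genes. *NCU09277* on LG VII had -0.99 upstream and -0.03 downstream, and *NCU16720* on LG IV had -1.27 and -0.44. *NCU05463* on LG II (-1.07 and -0.26) and *NCU09179* on LG III (-0.96 and -0.15) had the next largest differences of this sign. In these 4 genes the downstream window was the one nearer to WT. The opposite sign was most marked at *NCU07051* on LG VI (-1.71 upstream and -2.49 downstream), followed by *NCU09954* (0.10 and -0.63), *NCU11292* (-0.08 and -0.70) and *NCU08832* (-1.58 and -2.20).

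**Figure D4:**
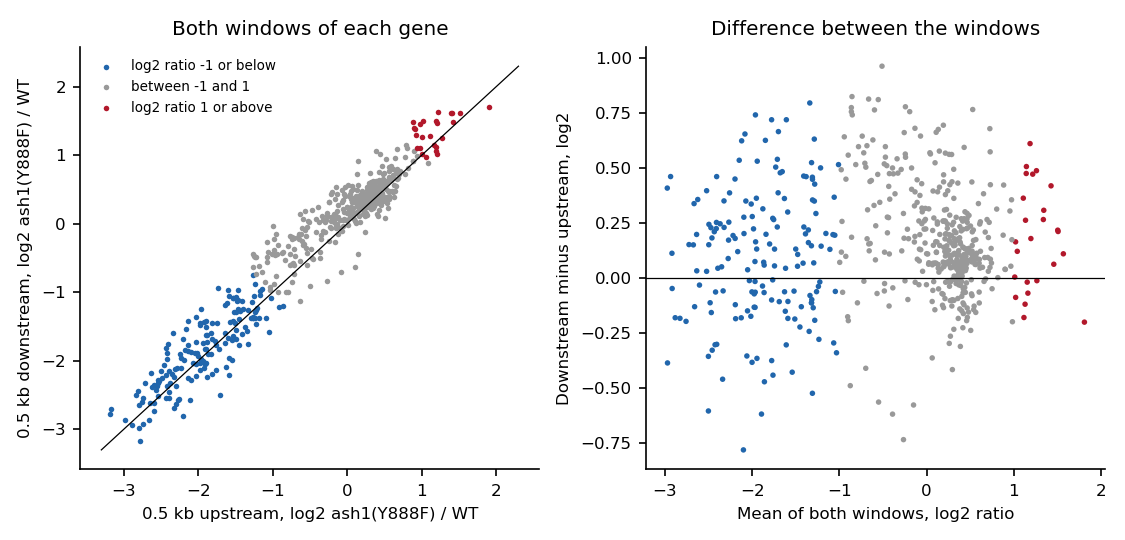
Left, log2 ratio in the 0.5 kb downstream window (y axis) against the 0.5 kb upstream window (x axis) of each of the 592 genes, with the line of equality. Right, downstream minus upstream (y axis) against the mean of both (x axis). Points lie above the line in 433 genes, and no difference reaches 1 in size.

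Of the 592 genes 15 have a symbol in the annotation. Among 5 kinase genes *stk-35* (*NCU05655*, -2.60), *stk-36* (-2.42) and *stk-56* (-2.26) were lower, and *rsk* (-0.90) and *stk-54* (-0.71) were below 0 without passing. All 5 lie on the left side of LG III, so they are not independent examples. Among 6 glycoside hydrolase genes, which encode enzymes that cut polysaccharides, *gh81-1* (35.3% of WT) was lower and the others lay above 0. These were *gh11-2* (0.12), *gh7-4* (0.42), *gh18-4* (0.71), *gh10-2* (0.73) and *gh10-3* (0.97). The remaining symbols are *con-6*, a gene expressed during conidiation (-0.49), *nca-3*, a calcium ATPase gene (-0.45), *nst-7*, a sirtuin gene (0.02), and *nop-1*, an opsin gene (0.19).

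RNA was measured in separate libraries and had no part in the ratios. Libraries held 6547197 and 7150417 counts in genes in *ash1*(Y888F) and 7469922 and 8103382 in WT. Each of 7 markers of conidia had counts in all 4 libraries, with summed levels of 197 and 125 CPM (counts scaled to the total of the library) in WT and 316 and 334 in the mutant. Of these markers 2 were called higher, 1 lower and 3 neither, and 1 had too few counts to test. These calls depended on the setting, since of 12 alternatives *con-10* (adjusted p = 0.092 with edgeR, and 0.18 without the second WT library) lost its call in 3, and *con-8* and the catalase gene *cat-1* gained one in 7 and 5. *con-10* had 18 and 2 WT counts against 63 and 68 in the mutant, and *con-8* had 308 and 100 against 420 and 989. The hydrophobin gene *eas* had 338 and 454 against 76 and 82 and fell by 2.24 ± 0.27 (SE) on the log2 scale (edgeR, adjusted p = 0.0069). The part of such differences between the cultures in the values below was not tested, and in whole cultures fewer cells of a kind and less RNA per cell cannot be told apart. Dates given with the RNA libraries also differ between WT and mutant. Which step they date is not stated, and date and genotype cannot be told apart.

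Most listed genes were silent in WT. Both WT libraries had 0 counts for 323 of the 592 genes, and 517 (87.3%) had under 1 CPM per kb of gene length. In *ash1*(Y888F), 137 of the 592 (23.1%) were called higher and 3 lower (quasi-likelihood test of edgeR, adjusted p under 0.1 by Benjamini-Hochberg), 64 were tested without a call and 388 had too few counts to test. Over the whole genome 1053 genes were called higher and 273 lower, which is 13% and 3.36% of the 8125 genes tested and 10.8% and 2.81% of all 9730 genes. The listed shares count untested genes as not called, so the shares of all 9730 genes are the like ones to set beside them. In CPM both mutant libraries lay above both WT libraries for 285 listed genes (48.1%), against 33.5% of all genes, and below them for 14, against 16% of all genes.

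Calls of higher RNA were most frequent among genes with lower H3K27me2/3. Of the 166 genes with lower H3K27me2/3, 84 (50.6%) were called higher in RNA and none lower, out of 94 tested. Of the 401 genes between, 51 (12.7%) were called higher and 3 lower, and of the 25 genes with higher H3K27me2/3, 2 (8%) were called higher. With untested genes counted as not called in the same way, 10.8% of all genes were called higher, so the lower class stood above this share and the genes between stood near it. Of the genes between, 105 of 401 were tested, against 8125 of 9730 over all genes. Their nearness to the share therefore does not show that their RNA stayed level. Among tested genes alone the calls were 84 of 94, 51 of 105 and 2 of 5 (89.4, 48.6 and 40.0%), against 13% of all genes tested. Genes silent in WT can enter the test only through their mutant counts, so these last shares describe the genes kept and support no comparison. Of the 1378 ASH1-marked genes without a ratio, 15 of which are in the WT H3K27me2/3 list, 544 were called higher (39.5%). No test of the difference between classes was run, since genes of a block are not independent.

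Counts per library gave the same order without the filter on low counts. At least 10 counts were found for 18 and 19 of the 166 lower genes in the WT libraries and for 102 and 101 in the mutant libraries. For the genes between, these numbers were 63 and 61 of 401 in WT and 115 and 113 in the mutant, and for the 25 higher genes 4 and 4 against 3 and 5. WT and mutant libraries did not overlap in the first and second class and overlapped in the third. Over all 9730 genes, 8505 and 8488 had at least 1 count in the WT libraries and 9100 and 9124 in the mutant libraries. More genes were thus detected in the mutant across the genome as well, and the number of all genes with 10 counts is not given here. The summed level of the lower class was 154 and 131 CPM in WT and 3155 and 2631 in the mutant, and without the 5 most abundant genes of each library it was 69.6 and 64.2 against 1133 and 1441. That of the genes between was 1706 and 2010 CPM against 2621 and 4370, and 511 and 481 against 1210 and 2275 without the 5 most abundant genes.

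Seen from RNA, the 137 genes called higher had a median H3K27me2/3 ratio of -1.36, with 84 lower and 113 below 0. The 388 genes with too few counts had a median of 0.26, but 72 of them were lower, so loss of the mark was also found at genes with little RNA in either strain. Of the 12 genes in the LG VII run, 11 had at most 15 counts in any library, and only *NCU06905* was called higher, with 1 and 0 WT counts against 22 and 53 in the mutant. Over the 204 tested genes the H3K27me2/3 ratio and the RNA fold change correlated with r = -0.53 (rho = -0.52), a description across genes that share samples and blocks and that were kept by their counts.

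Many of the lower genes with the largest RNA changes had no WT counts at all. Fitted fold changes tend to be largest where WT counts are 0, so this follows in part from the ranking. *NCU06888* on LG VII (H3K27me2/3 -2.46) had 0 and 0 WT counts against 146 and 271 in *ash1*(Y888F), at least 158-fold higher against a floor of 3 counts over both WT libraries. *NCU07152* on LG V (-1.96) had 0 and 0 against 116 and 194 (at least 117-fold), and *NCU04710* on LG VI (-2.34) had 0 and 0 against 117 and 191 (at least 117-fold). In each of these genes both mutant libraries were far above WT (edgeR, adjusted p = 0.0046 for all 3). *NCU05191* on LG IV (-1.26) had 0 and 0 against 157 and 114, at least 103-fold (adjusted p = 0.0052), and *NCU17203* on LG VII (-1.51) had 0 and 0 against 133 and 119, at least 95.5-fold (adjusted p = 0.0046).

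*NCU08818* on LG IV (-1.29) had the largest fitted change, but its mutant libraries were far apart, with 1 and 0 WT counts against 159 and 2776 in the mutant (edgeR, adjusted p = 0.017). Its CPM ratio was 3337 (exact 95% counting interval 598 to 131845). Such intervals and floors cover counting error only.

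The genes of deepest H3K27me2/3 loss did not all rise. *NCU04706* had 0 and 0 counts in WT against 104 and 124 (at least 86.4-fold), *NCU04707* had 0 and 0 against 40 and 51 (at least 34.5-fold) and *NCU04703* had 1 and 0 against 55 and 37. *NCU07049*, which was transcribed in WT, had 127 and 62 counts against 596 and 871, a log2 fold change of 2.99 ± 0.42 (SE). These 4 were called higher (edgeR, adjusted p = 0.0046 to 0.0099). *NCU12045* had 0 and 0 against 12 and 2, and *NCU12078*, *NCU04709* and *NCU06901* had at most 2 counts in any library, and none of these 4 had enough counts to be tested.

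Among the kinase genes, *stk-56* had 1 and 1 WT counts against 128 and 147 in the mutant, a CPM ratio of 156 (exact 95% counting interval 42.9 to 1297). *stk-35* had 3 and 2 against 60 and 68, a log2 fold change of 4.68 ± 0.53 (SE), and *stk-36* had 39 and 6 against 412 and 313, 4.06 ± 0.77. All 3 were called higher (edgeR, adjusted p = 0.0023, 0.0058 and 0.022). *stk-54*, with a ratio of -0.71 outside the lower class, had 1 and 1 counts against 12 and 23, a CPM ratio of 19.9 (interval 5.11 to 171), and was called higher as well (adjusted p = 0.018), but not without the first (0.11) or the second WT library (0.10). *rsk* had 73 and 81 against 295 and 417 (2.27 ± 0.27, adjusted p = 0.0069), with a ratio of -0.90 just outside the lower class.

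The 3 listed genes called lower in RNA were not in the lower H3K27me2/3 class. *NCU07610* on LG IV (0.98) had 120 and 74 counts in WT against 15 and 17 and fell by 2.54 ± 0.46 (SE) on the log2 scale (edgeR, adjusted p = 0.019). *gh10-3* (*NCU04997*, 0.97) had 294 and 225 against 68 and 129 and fell by 1.36 ± 0.37 (adjusted p = 0.071), and *NCU09185* on LG III (-0.78) had 167 and 135 against 41 and 64 and fell by 1.47 ± 0.35 (adjusted p = 0.048). In all 3 both mutant libraries lay below both WT libraries, but each lost its call without the first WT library. Among the higher class, *NCU07801* (1.01) was called higher in RNA, with 1 and 0 counts against 21 and 13 (edgeR, adjusted p = 0.025, and 0.11 without the second WT library), as was *NCU08097* on LG I (1.26), with 18 and 10 against 45 and 40, while *NCU08545* (1.46) had 7 and 12 against 6 and 6 and *NCU05713* (1.57) had no count in any library. *con-6* (-0.49) had 42 and 38 WT counts against 456 and 92 in the mutant (2.91 ± 0.80, adjusted p = 0.077, and 0.11 without the first WT library), a rise carried unequally by the mutant libraries.

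**Figure D5:**
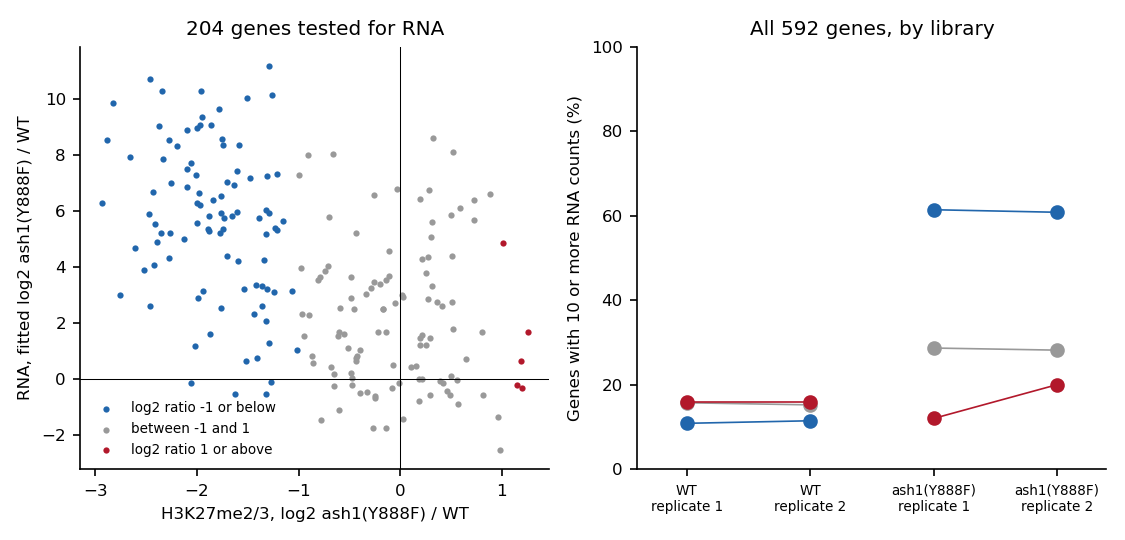
Left, fitted RNA log2 fold change of *ash1*(Y888F) over WT (y axis) against the H3K27me2/3 log2 ratio (x axis) for the 204 listed genes with enough counts to test, coloured by H3K27me2/3 class. Right, percent of all 592 genes with 10 or more RNA counts in each library (y axis), by the same classes. In the lower class (blue) 18 and 19 of 166 genes reached 10 counts in WT and 102 and 101 in *ash1*(Y888F).

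RNA of the genes examined that place or bind chromatin marks gave no call in the main comparison. Of 8 such genes, the methyltransferase genes *set-7*, *ash1*, *set-2*, *dim-5* and *dim-2*, the heterochromatin protein 1 gene *hpo*, and the histone deacetylase genes *hda-1* and *hda-3*, none was called (edgeR, adjusted p = 0.17 to 0.98) and none is in the table of ratios. *set-7* had 176 and 194 WT counts against 237 and 326 in *ash1*(Y888F), a log2 difference of 0.67 ± 0.25 (SE, adjusted p = 0.17). *dim-5*, the H3K9 methyltransferase gene, had 111 and 119 against 35 and 77, -0.99 ± 0.41 (adjusted p = 0.21). *set-7* and *dim-5* each gained a call in 1 of 12 alternatives. The genes of other PRC2 subunits are not among the 8, because the annotation gives them no symbol or another one. *ash1* itself had 668 and 675 counts against 556 and 825, and since the mutation is a substitution its RNA level does not check the label.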

How the data were processed

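The authors aligned ChIP-seq reads to the corrected OR74A genome (NC12) with Bowtie2 and deposited, per gene, the log2 ratio of the mutant's coverage to that of WT, from bamCompare of deepTools. Tool versions were not used here. The lists of ASH1-marked, ASH1-unmarked and WT H3K27me2/3 genes were deposited with a score of 0 for each gene and gave positions only. Ends of linkage groups were taken as the last annotated gene end in RefSeq. RNA counts per gene were deposited by the authors without normalization. Reads assigned to no gene (14.4 and 14.5% in *ash1*(Y888F), 10.8 and 9.56% in WT) were left out. Counts were tested with edgeR 4.0.16 (TMM, minimum count of 10, quasi-likelihood, 2 against 2 libraries, all genes) in R 4.3.3, which was tested on simulated data. Standard errors are the fold change (log2) divided by the root of F. The paper describes its RNA replicates as biological duplicates. Whether each came from a separate culture is not spelled out, so how much of the spread is technical is not known.

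Genes named are the extremes of the ratios, of the window differences and of each linkage group, those next to the limits, the longest runs, genes with a symbol, and the largest RNA changes. Genes at abrupt steps and *NCU08097* were named after their values were seen. The members, lists and limits were chosen with earlier results of these data known. In the list of chromatin genes 4 of 12 IDs were not used, because the annotation gives them no symbol or another one, and *ash1* follows the paper's ID. Columns without names (8 of per-sample counts) and the authors' own fold changes were not used. DESeq2 1.42.0 was an alternative. Python 3.11.15, numpy 2.4.6, pandas 2.3.3 and matplotlib 3.10.9 were used.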

Additional observations from a re-analysis of the deposited data

How the results depend on the processing

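At 4-fold in place of 2-fold, 67 genes were lower and 0 higher, and at 1.5-fold 64 were higher. The other settings (either window alone, centring, the WT list, 1 gene per group of overlapping windows) left both counts within 1.5 times. The median ratio was -0.016 with the upstream window alone. The difference of genes within 100 kb of an end from the others was -0.36 at 200 kb, 0.095 without LG III, 0.088 without LG IV, -0.28 without LG VI and -0.27 without LG VII, and the cause was not tested. The count of listed genes called higher in RNA was 121 to 139 with a library left out, 136 with the replicate number as a block, 145 with crossed numbers (an alternative added after seeing the data, as same-numbered libraries correlated at -0.19), 159 with DESeq2 and 159 without the low-count filter, and 138 with the Δ*mus-52* parent library as control. Those called lower were 1 to 7 with a library left out and 0 with the parent as control. In the class with higher H3K27me2/3, RNA calls were 0 to 2 with a library left out and 1 without the low-count filter, with the block, with DESeq2 and at an adjusted p under 0.05. Over all genes, leaving out *ash1*(Y888F) library 1 gave 918 lower calls, library 2 461, WT library 1 107 and WT library 2 87, against 273. For *ash1* the log2 difference was -0.11 to 0.26 with a mutant or WT library left out. Of 29 named genes with an RNA call, 21 kept it in every setting that tested them. The ratios have no depth or replicate and rest on 1 sample per group, so no interval can be given for any of them.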
